A study of Mus musculus with 1507 samples.

Results

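The unannotated spliced transcripts were those transcripts of the merged gene models that the authors assembled from their reads, that match no transcript of GENCODE vM9, and that have 2 or more exons. They numbered 12593 of 42592 unannotated transcripts and of 157717 transcripts in all, and the other 29999 unannotated transcripts had 1 exon. All members were taken from the deposited gene models in GRCm38 (mm10) coordinates, without use of any expression value. Their levels were read as TPM (an abundance per transcript length, scaled to the same sum in each library).

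The cells were 5G6GR, a mouse embryonic stem (ES) cell line that carries a fusion of *Gata6* with the ligand-binding domain of the glucocorticoid receptor, so that dexamethasone turns it into primitive endoderm. All samples of both tables came from this line, and all therefore carry the transgene. Single cells were profiled by RamDA-seq, a full-length total RNA method that primes along the whole RNA, at 0 h (90 cells), 12 h (68), 24 h (90), 48 h (82) and 72 h (91) after dexamethasone, and the 0 h cells were ES cells. From undifferentiated ES cell RNA there were 3 libraries of rdRNA-seq (rRNA-depleted total RNA, 1 µg), 3 of paRNA-seq (poly(A)-selected RNA, 1 µg), 3 of RamDA-seq (10 pg) and 4 of C1-RamDA-seq (a modified protocol on a microfluidic chip, 10 pg). Nothing in the labels names separate cultures, so each time was 1 sample whose cells are no replicates, and the spread between libraries may be technical.

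Splicing joins exons by removing introns, nearly all of which begin with GT and end with AG in the DNA strand that is read as RNA. The same gene can use different first exons, internal exons and last exons, and ES cells are known for alternative first exons and for many RNAs that start in repeats. An assembler builds a spliced model from reads that jump a gap in the genome, so that a true intron, a deletion relative to the reference and a read placed across similar sequences all look alike until the bases at the gap are read. A model that ends inside an annotated exon may be a fragment of a longer RNA.

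Of the 12593 members, 10190 shared at least 1 annotated splice junction with a gene on the same strand, and 10822 lay in the loci of 5794 annotated genes. Another 969 overlapped an annotated exon on the same strand without a shared junction, 128 overlapped an exon on the opposite strand, 154 lay inside an intron on the same strand and 146 inside an intron on the opposite strand. The remaining 1006 were intergenic, of which 457 lay within 10 kb of a gene. Isoforms of known genes thus made up most of the list. The members had a median of 8 exons and of 2313 bases, against 5 exons and 1127 bases in annotated spliced transcripts. The model with the most exons, 103, belonged to *Dst*, which encodes a giant cytoskeletal linker, and so did the longest, of 24718 bases.

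In 9416 members 1 intron was unannotated, in 2243 there were 2, and in 934 there were 3 or more. The donor of the first intron was unannotated in 5677 members (45.1%) and the acceptor of the last intron in 3876 (30.8%), so that the changes lay more often at the start of the model than at its end. By the study's own selection no intron chain was in GENCODE vM9. In the later GENCODE vM21, 502 members (3.99%) had their exact intron chain, 361 of them as protein-coding transcripts, 39 as targets of nonsense-mediated decay and 37 as lincRNAs. Members found in vM21 had a mean of at least 1 TPM over the times in 41.4% of cases and the others in 27.8%.

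The unannotated introns of all members came to 13874, after counting an intron shared by several members 1 time. Of these, 1457 joined a known donor to a known acceptor in a pairing of their own, 4130 had an unannotated donor, 3277 an unannotated acceptor, and 5010 were unannotated at both ends. The bases at both ends of an intron could be read for 2323 of them, where transcripts of GENCODE vM21 cover that genomic stretch as exon. GT and AG stood at the ends of 94 of 95 readable introns with both ends known (98.9%), which is the share in annotated introns (3965 of 4008, 98.9%). The share was 85.5% with a new donor, 79.1% with a new acceptor and 66.7% with both ends new. Introns that entered vM21 read GT and AG in 258 of 259 cases. The readable introns are those retained as exon in some other transcript, and they are not a random sample of the list.

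**Figure D1:**
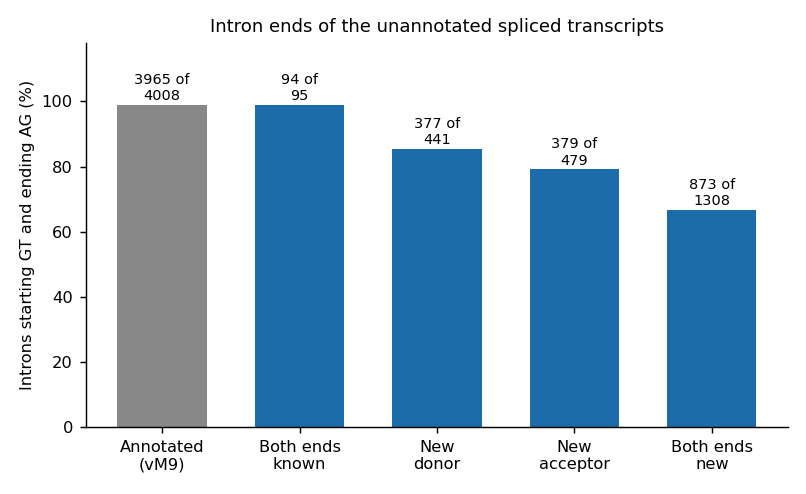
Bars give the percentage of readable introns that start with GT and end with AG, for annotated introns of GENCODE vM9 and for the 4 kinds of unannotated intron, with the counts above the bars. The share is 98.9% where both ends are known and 66.7% where both are new.

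The sequences that follow show what the members add to the transcriptome. Each is 30 bases of the joined RNA in its DNA letters, 5′ to 3′, 15 from the exon before the intron and 15 from the exon after it, with the 3 bases on each side of the join in capitals. They were read from GENCODE vM21 transcripts in GRCm38 and are given with the intron that the join removes. The first group holds members with large differences between times, most with introns that later entered vM21.
Fst (TCONS_00020376), intron 4 of 5, chr13:114454511-114455120, minus strand: agggaaagtgtaTCAAAGcaaagtcctgtg
Utrn (TCONS_00006612), intron 1 of 24, chr10:12538214-12547946, minus strand: acaaaatttgaaAAGGACatccaggcagaa
TCONS_00015474, intron 1 of 2, chr12:4553176-4553690, minus strand: tgaacctctgaaTCTGAAataaagtgcaca
TCONS_00015474, intron 2 of 2, chr12:4552746-4553013, minus strand: cccatgccagccAGGTCTcccctcccccag
Vgll3 (TCONS_00027232), intron 1 of 3, chr16:65815759-65828058, plus strand: caacctggccagCAGGGAgacattgggtca
Pth1r (TCONS_00073079), intron 3 of 15, chr9:110731641-110741918, minus strand: catatggctctgGTCGTGgacgcagacgat
Jam2 (TCONS_00027285), intron 7 of 7, chr16:84816374-84821259, plus strand: aaggctacttttCAAGAAgggcagtcctgc
All but the last pair of these introns, those of *Pth1r* and *Jam2*, are in vM21. The *Fst* intron uses an unannotated acceptor, the *Utrn* intron joins an unannotated first exon to a known one, and the *Jam2* intron joins a known donor to a known acceptor that vM9 never pairs.

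A second group shows how members of 1 gene differ. Both *Cryab* models start in the same unannotated first exon and use the same new donor, and their acceptors lie 105 bases apart.
Cryab (TCONS_00070112), intron 1 of 3, chr9:50751577-50753080, plus strand: gtcacctcatctGGGCTCagtgagtaccgg
Cryab (TCONS_00070113), intron 1 of 3, chr9:50751577-50753185, plus strand: gtcacctcatctGGGAAGcttcagaagact
Both introns start with GT and end with AG, and the one of TCONS_00070112 is in vM21. In *App*, the amyloid precursor protein gene, a model with an exon whose ends are not in vM9 carried 2 new joins.
App (TCONS_00028517), intron 6 of 16, chr16:85043744-85056323, minus strand: aggaggtggtccGAGAGGtgtgctctgaac
App (TCONS_00028517), intron 7 of 16, chr16:85030366-85043575, minus strand: tgtgtggcagcgTGTTTCccacgacagcag
Both are in vM21. This model averaged 0.304 ± 0.704 TPM over the cells at 0 h and 26.3 ± 9.93 TPM at 72 h. The annotated *App* transcript averaged 0.824 ± 1.29 and 40.3 ± 11.8 TPM. The *App* members TCONS_00028515 and TCONS_00028516 were also higher at 72 h, at means of 17.2 and 14.3 TPM against 0.534 and 0.629 TPM at 0 h.

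A further group shows gaps that do not look like spliceosomal introns. Of the unannotated introns, 143 were shorter than 50 bases, none of them is in vM21, and GT and AG stood at the ends of 18 of the 94 that could be read (19.1%), against 76.5% of longer ones.
Rpph1 (TCONS_00022266), 21 bases, chr14:50807558-50807578, minus strand: agtcggggcggaTGCCTCcctcgccggagc
S100g (TCONS_00075947), 22 bases, chrX:162962200-162962221, minus strand: caagtactctggACAGAAtggcgatggaga
Eif5a (TCONS_00012090), 24 bases, chr11:69921261-69921284, minus strand: cgtactaagaccCGTAGGcggcggcggcgg
The gap in the *Rpph1* model starts with CT and ends with GC, and the gap in *S100g* starts with AT and ends with AA. Of these 3, only the gap in *Eif5a*, which is followed by CGG repeats, starts with GT and ends with AG. At the other extreme, the model over *Hist1h4f* spans an intron of 146806 bases that starts with GT and ends with AG. It has an exon in each of the histone genes *Hist1h4f* and *Hist1h4c*. Whether reads were placed across similar sequences of these genes was not tested.
TCONS_00018737, chr13:23551581-23698386, minus strand: aagcgccaccgtAAGGTTcttcgcgataac
Over all 2323 readable unannotated introns, 1723 were GT to AG (74.2%), 50 GC to AG (2.15%), 209 CT to AC (9.00%) and 341 other pairs (14.7%). CT to AC is GT to AG read from the opposite strand. Whether such models were placed on the wrong strand was not tested.

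The levels of all transcripts followed the labels of the time course. The summed TPM of 8 ES marker genes was 817 at 0 h and 80.9 at 72 h and 7 of them were lower by 2-fold or more, with *Klf4* the exception, while 8 primitive endoderm markers summed to 109 and 3646 and all 8 were higher. Markers of trophoblast, mesoderm, neural cells, fibroblasts and 2-cell-like cells summed to at most 3.93 TPM per list at any time, and their part in the results below was not tested.

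In rdRNA-seq, the 3 libraries detected 6336, 6262 and 6495 members at 0.1 TPM or more. Those of paRNA-seq detected 6997, 7085 and 7071 members. RamDA-seq from 10 pg detected 5118 ± 92.1 members (mean ± SD, n = 3) and C1-RamDA-seq 5616 ± 53.8 (n = 4). The groups of libraries did not overlap, and poly(A)-selected RNA gave the highest number. At 1 TPM or more, paRNA-seq again had the most (4109 ± 29.96), but RamDA-seq detected 2970 ± 69.6 members, more than the 2174 ± 187 of rdRNA-seq, and C1-RamDA-seq 3530.5 ± 68.8. Exact permutation tests over libraries (two-sided) cannot go below 0.1 with 3 against 3 libraries or 0.0286 with 3 against 4, which RamDA-seq against C1-RamDA-seq reached (exact permutation adjusted p = 0.0857 over the 3 comparisons). The members were detected in 50.5% of cases in rdRNA-seq, 55.99% in paRNA-seq, 44.6% in C1-RamDA-seq and 40.6% in RamDA-seq. For annotated spliced transcripts these values were 42.3%, 43.96%, 36.6% and 33.4%. The members were assembled from read pairs, which among these methods only rdRNA-seq and paRNA-seq had. How far this raised their detection in the bulk libraries was not tested. Unannotated transcripts of 1 exon had the opposite order of the bulk libraries, 71.1% of them being detected in rdRNA-seq but 52.5% in paRNA-seq.

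**Figure D2:**
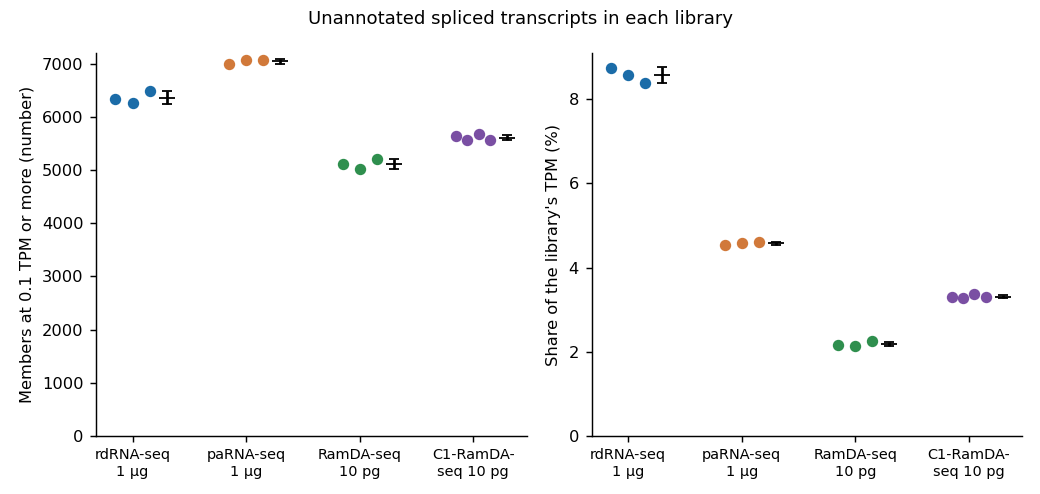
Points are libraries, and the bars beside them give the mean and the SD, for the number of members at 0.1 TPM or more (left) and the members' share of the library's TPM (right). paRNA-seq has the most members detected, and rdRNA-seq the highest share of TPM.

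The members held 8.58 ± 0.189% of all TPM in rdRNA-seq (n = 3), 4.58 ± 0.0333% in paRNA-seq (n = 3), 2.18 ± 0.0584% in RamDA-seq (n = 3) and 3.31 ± 0.0400% in C1-RamDA-seq (n = 4). The excess in rdRNA-seq lay in members that overlap an exon on the same strand, which held 7.04 ± 0.340% there against 0.751 ± 0.00462% in paRNA-seq. Members that share a junction with a gene had the reverse order, 1.195 ± 0.130% in rdRNA-seq and 3.49 ± 0.0320% in paRNA-seq. Annotated spliced transcripts had this order too: they held 61.2 ± 0.430% of TPM in paRNA-seq libraries but 22.3 ± 2.50% of it in rdRNA-seq libraries. Annotated single-exon transcripts held 23.5 ± 0.258% of TPM in paRNA-seq libraries but 61.1 ± 3.08% of it in rdRNA-seq libraries. The order of the members that share a junction was thus not particular to them. The 171 members with an intron under 50 bases held 6.57% of TPM in rdRNA-seq but 0.116% in paRNA-seq, and most of that was the *Rpph1* model.

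The comparison of rdRNA-seq with paRNA-seq asks which members are seen without selection for a poly(A) tail. Of the 5 leading members in rdRNA-seq, 4 overlapped genes whose RNA is known to lack that tail, namely *Rpph1* and histone genes. *Rpph1* is the RNA subunit of RNase P, and its member TCONS_00022266 (chr14:50807445-50807774, exonic) stood at 68042, 66994 and 61058 TPM in the rdRNA-seq libraries and at 23.9, 10.8 and 8.32 TPM in those of paRNA-seq. The log2 fold of TPM + 1 was 12.19 (limma, SE 0.35, Benjamini-Hochberg adjusted p = 2.42e-05). The histone model over *Hist1h4f* stood at 1075, 1141 and 985 TPM in rdRNA-seq and at 0.212, 2.91 and 1.66 TPM in paRNA-seq. Its log2 fold was 8.84 (limma, SE 0.41, adjusted p = 0.000123). No library of either group came near the other for these models. Members over the histone genes *Hist2h3c2* and *Hist1h3g* and over *Gm10801* followed, with log2 folds of 7.596, 4.98 and 6.31 and limma adjusted p-values of 6.07e-05, 7.76e-05 and 2.56e-05. All 5 models have 2 exons and share no junction with an annotated transcript.

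**Figure D3:**
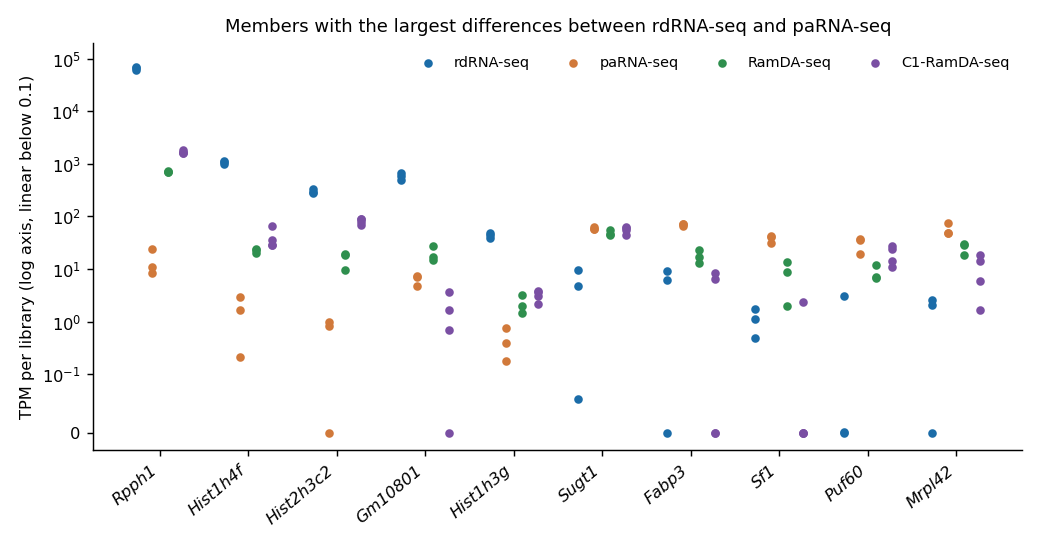
Points are libraries, on a log axis that is linear below 0.1 TPM, for the 5 members furthest apart in either direction between rdRNA-seq and paRNA-seq. The *Rpph1* model lies at or above 61058 TPM in the rdRNA-seq libraries but at or below 23.9 TPM in those of paRNA-seq, and the 5 members on the right are higher in paRNA-seq.

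Among members that were lower in rdRNA-seq, that of *Mrpl42*, a protein of the mitochondrial ribosome, stood at 0, 2.58 and 2.06 TPM in rdRNA-seq and at 47.4, 48.3 and 74.8 TPM in paRNA-seq (log2 fold -4.67, SE 0.51, limma adjusted p = 0.00115). Its first intron uses a donor that is in vM21 (chr10:95500523-95501905), and its whole intron chain is now annotated there as protein-coding. The member of *Sf1*, which encodes the protein that binds the branch point of introns, stood at 1.74, 1.12 and 0.489 TPM in rdRNA-seq and at 39.98, 41.8 and 31.6 TPM in paRNA-seq (log2 fold -4.23, SE 0.26, limma adjusted p = 0.000218). Its new donor reads TG, not GT. Members of *Puf60* (a splicing factor), *Fabp3* (a fatty acid binding protein, with a gap of 20 bases from CT to AC) and *Sugt1* (a co-chaperone) had log2 folds of -4.24, -4.08 and -3.92 (limma adjusted p = 0.00326, 0.0143 and 0.0144). These last 3 no longer passed 0.05 by limma once TPM were rescaled over protein-coding transcripts (adjusted p = 0.0634, 0.153 and 0.163).

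Across all members, 8954 of 12593 passed the filter of a mean of 0.1 TPM over the 6 libraries. Of these, 132 were higher in rdRNA-seq (1.47%, against 3.36% of all transcripts tested) and 2083 lower (23.3%, against 23.4%). The median log2 fold was -0.42 over the members and -0.33 over all transcripts tested. TPM sum to the same total in each library, and a few small RNAs take much of that total in rdRNA-seq. After rescaling by the median ratio over annotated protein-coding transcripts, 336 of 8816 members were higher (3.81%, against 6.89% of all) and 215 lower (2.44%, against 2.27%), with a median of 0.07 over members and 0.19 over all. The split into higher and lower thus rests on the scaling, and on neither scale did the members' share of lower calls stand far from that of all transcripts. Their share of higher calls was below that of all transcripts on both scales. By position, members sharing a junction went from 77 higher and 1733 lower of 7080 to 214 and 200 of 6950 with the rescaling. Intergenic members went from 14 higher and 162 lower of 818 to 41 and 4 of 820.

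RamDA-seq and C1-RamDA-seq differ together in platform, volumes, the oligo(dT) primer, reagents and incubation times, and these cannot be told apart. Of 8906 members tested, 40 were higher in RamDA-seq (0.449%, against 0.58% of all transcripts) and 141 lower (1.58%, against 2.66%). With rescaled TPM there were 73 higher (against 0.965% of all) and 51 lower (against 1.07%) of 8771. A member of *Prrc2c* stood at 20.5, 15.4 and 12.6 TPM in RamDA-seq and was listed at 0 in all 4 C1-RamDA-seq libraries (limma adjusted p = 0.000308). A member of *Tra2a*, a splicing factor, stood at 17.8, 18.4 and 10.7 TPM in RamDA-seq and at 1.58, 0, 0 and 0 TPM in C1-RamDA-seq (limma adjusted p = 0.00178). That of *Yme1l1*, a mitochondrial protease, had a log2 fold of 3.805 (limma adjusted p = 0.00671) and was lost without RamDA-seq replicate 2 or 3. In none of these members did the groups of libraries overlap. In the other direction, a member of *Aldoa*, the glycolytic enzyme aldolase, stood at 189, 148, 199 and 273 TPM in C1-RamDA-seq and at 14.98, 0.0306 and 14.1 TPM in RamDA-seq (log2 fold -4.98, SE 0.73, limma adjusted p = 0.00175). It was at or below 0.000634 TPM in the 6 bulk libraries. A member of *Snhg1*, the host gene of several small nucleolar RNAs, stood at 30.4, 16.4, 18.1 and 20.9 TPM in C1-RamDA-seq and at or below 0.00217 TPM in the other 9 libraries. Members of *Sept1* and *Mid1* and a member inside an intron of *4933407K13Rik* were also lower in RamDA-seq, with log2 folds of -4.92, -4.02 and -3.85 and limma adjusted p-values of 4.60e-05, 0.00153 and 0.00161. The *Sept1* member stood at 0.0556, 75.5 and 0.587 TPM in the 3 paRNA-seq libraries, so that libraries of 1 kind were far apart. Members of *Eif5a* and *Usp9x* also passed as higher in RamDA-seq, with limma adjusted p-values of 0.0408 and 0.0195, but the call of *Eif5a* was lost with a pseudocount of 0.1 (adjusted p = 0.0828) and that of *Usp9x* too (0.0746). Without RamDA-seq replicate 1, 2 or 3 the members called came to 104, 98 and 117 in place of 181.

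RamDA-seq and rdRNA-seq both make no selection for a tail, but differ together in input (10 pg against 1 µg), reverse transcription, rRNA removal and library preparation, which cannot be told apart. Of 8174 members tested, 164 were higher in RamDA-seq (2.01%, against 1.82% of all) and 65 lower (0.795%, against 1.46%). With rescaled TPM the counts were 141 higher (against 1.56% of all) and 93 lower (against 2.14%) of 8101. Members of *Eif5a*, a translation factor, and of *Tbx3* and *Nacc1*, transcription regulators of ES cells, were listed at 0 in all 3 rdRNA-seq libraries and stood at 46.3, 40.9 and 54.8, at 17.6, 13.3 and 25.6 and at 12.02, 15.3 and 18.2 TPM in RamDA-seq. The *Nacc1* member was listed at 0 in paRNA-seq too and stood at 35.1, 41.4, 24.7 and 28.4 TPM in C1-RamDA-seq. The member of *Trh*, the precursor of thyrotropin-releasing hormone, stood at 62.2, 58.6 and 84.2 TPM in RamDA-seq and at 2.48, 3.99 and 7.85 TPM in rdRNA-seq (log2 fold 3.68, SE 0.36, limma adjusted p = 0.00178), with groups that did not overlap. A member of *Trim6*, a ubiquitin ligase, whose last gap of 45 bases runs from CT to AC, stood at 12.8, 19.1 and 25.1 TPM in RamDA-seq and at 0.0177, 0.0345 and 0.452 TPM in rdRNA-seq. The *Rpph1* and *Hist1h4f* models again led the other direction, with log2 folds of -6.52 and -5.53 (limma adjusted p = 2.07e-09 and 5.88e-07). A member of *Eif3a*, a subunit of a translation initiation factor, stood at 0.06198, 0 and 3.93 TPM in RamDA-seq and at 43.9, 39.5 and 49.1 TPM in rdRNA-seq. It lost its call (limma adjusted p = 0.00597) without any 1 of the rdRNA-seq libraries. Without rdRNA-seq replicate 1, 2 or 3 the members called came to 72, 81 and 79 in place of 229.

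In single cells, the number of members detected per cell was lowest at 4133, at the median 5177.5 and highest at 6031 at 0 h, and lowest at 3883, at the median 4558 and highest at 5050 at 72 h. The medians at 12 h, 24 h and 48 h were 5128.5, 5046.5 and 4811. The median was thus lower at each later time. That of all transcripts detected was 57208, 56856.5, 57451.5, 54347.5 and 52909 over the 5 times, highest at 24 h. The members held 3.12 ± 0.321% of a cell's TPM at 0 h (mean ± SD over 90 cells), 3.38 ± 0.340% at 24 h (90 cells) and 2.84 ± 0.289% at 72 h (91 cells). Of this, members in or nearest to *Erdr1*, *Gm21857* and *Gm21887* on chromosomes X and Y held 0.823 ± 0.296%, 1.02 ± 0.365% and 0.772 ± 0.293%. Of the 12593 members, 44 were detected in no cell, 9183 in at least 25% of the cells of a time, 3309 in at least 75% of those of a time, and 1428 in at least 75% at every time. The number of cells with a member counts cells with an estimate at 0.1 TPM or more, not cells that express it.

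Among the members with the highest means were short models with both intron ends unannotated. TCONS_00076055 (chrY:90795926-90798420, 207 bases, inside an intron of *Erdr1*) was at its lowest 634, at the median 2499.6 and at its highest 5255 TPM in the cells at 0 h, and 786, 2179 and 5302 TPM at 72 h. It was detected in all cells, and 4 further models on chromosome Y had mean levels of 973 to 1599 TPM (TCONS_00076054), 591 to 1002 TPM (TCONS_00076030), 565 to 889 TPM (TCONS_00076047) and 524 to 846 TPM (TCONS_00076027) over the times. Short transcripts get a high TPM from few reads, and bases at the intron ends of these models could not be read. A model of *Rpl23*, a protein of the large ribosomal subunit, averaged 984 ± 127 TPM at 0 h and 916 ± 165 TPM at 72 h. It shares 3 junctions with the annotated gene, and its new acceptor ends in CG, not AG. Its level lay above the 68.5 and 66.5 TPM of the annotated full-length *Rpl23* transcript, which is longer and shares its reads. The *Rpph1* model averaged 602 ± 141 TPM at 0 h and 414 ± 93.7 TPM at 72 h. A model of *Rpl35* and models over the pseudogenes *Gm15459* and *Gm1821* had the next levels, of 453 ± 83.9, 391 ± 107 and 418 ± 87.01 TPM at 0 h.

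Between 0 h and 72 h, 429 members were higher by 2-fold or more on log2(mean TPM + 1) and 454 were lower, of 3570 with a mean of at least 1 TPM over the times. That is 12.0% and 12.7% of them, against 12.3% and 9.79% of all 49278 transcripts that passed the same filter. From 0 h to 12 h, 104 were higher (2.91%, against 2.64% of all) and 103 lower (2.89%, against 2.55%). From 12 h to 24 h, 84 were higher (2.35%, against 2.39%) and 119 lower (3.33%, against 1.75%), and from 24 h to 48 h, 95 were higher (2.66%, against 3.12%) and 82 lower (2.30%, against 2.14%). From 48 h to 72 h, 15 were higher (0.420%, against 1.22%) and 48 lower (1.34%, against 1.2%). Which direction held more members depended on the setting for single steps: with a pseudocount of 0.1 TPM, 257 were higher and 218 lower from 12 h to 24 h, and 183 and 239 from 24 h to 48 h, where medians over cells gave 92 and 143. Each time is 1 sample, so none of these counts has a test. By position, members sharing a junction were higher in 371 and lower in 339 of 3009 cases, and intergenic members in 19 and 50 of 202 (9.41% and 24.8%). Annotated spliced lincRNA transcripts also had more lower than higher, at 16 higher and 47 lower of 333 (4.80% and 14.1%). Members whose first donor was unannotated were higher in 203 and lower in 281 of 1585 cases, and those with an annotated first donor in 226 and 173 of 1985.

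Of the 10 members with the highest log2 folds, all but the model over an exon of *Kcnq5* share a junction with an annotated gene. TCONS_00073079 of *Pth1r*, a receptor of parathyroid hormone found in parietal endoderm, was at its lowest 0, at the median 0 and at its highest 0.867 TPM in the cells at 0 h, and 33.6, 102 and 210.5 TPM at 72 h. Its means were 0.0344, 0.881, 13.3, 70.1 and 106 TPM over the 5 times, and the cells of 0 h and 72 h did not overlap. The log2 fold was 6.69. TCONS_00020376 of *Fst*, follistatin, which binds and blocks activins, averaged 0.135 ± 0.324 TPM at 0 h, 27.7 ± 35.5 TPM at 48 h and 88.9 ± 62.5 TPM at 72 h (log2 fold 6.31). At 72 h the cells ranged from 3.04 to 264 TPM around a median of 79.6. This is the model with the acceptor shown above that is in vM21. TCONS_00070113 of *Cryab*, a small heat shock protein, averaged 0.417 ± 0.652 TPM at 0 h and 94.6 ± 51.7 TPM at 72 h (log2 fold 6.08), and still averaged 2.09 ± 2.75 TPM at 24 h. The annotated *Cryab* transcript averaged 16.9 TPM at 72 h, so the unannotated first exon led this gene's TPM.

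TCONS_00065692 of *Col4a2*, a collagen IV chain of basement membranes, averaged 0.338 ± 0.523 TPM at 0 h and 81.6 ± 43.03 TPM at 72 h (log2 fold 5.95). TCONS_00052762 of *Pdgfra*, a receptor tyrosine kinase and marker of primitive endoderm, was early. It averaged 0.0313 ± 0.149 TPM at 0 h, 12.2 ± 10.6 TPM at 12 h, 38.9 ± 21.9 TPM at 24 h and 30.9 ± 16.6 TPM at 72 h. The others were members of *S100g*, a calcium-binding protein (log2 fold 4.91), *Timp2*, an inhibitor of matrix metalloproteinases (4.73), *Bend5* (4.59), a model over an exon of *Kcnq5* (4.58) and *Chst15*, a sulfotransferase of chondroitin sulfate (4.56). The *S100g* model was uneven between cells: at 72 h it was detected in 81.3% of cells, with a median of 14.2 and a highest value of 243 TPM. It is the one with the gap of 22 bases shown above.

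**Figure D4:**
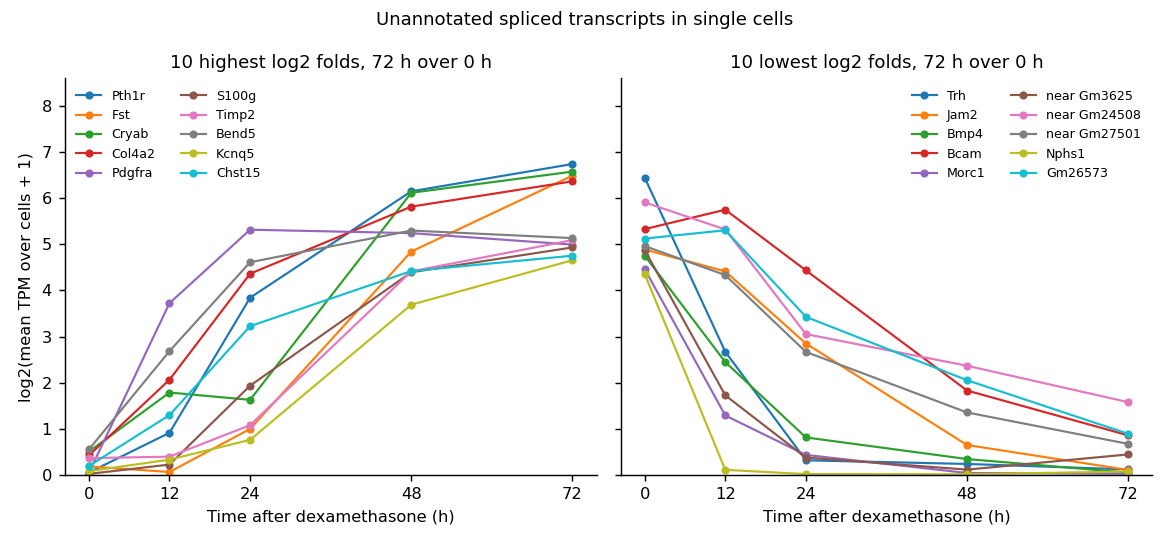
Lines give log2(mean TPM over cells + 1) at each time for the 10 members with the highest log2 fold from 0 h to 72 h (left) and the 10 with the lowest (right), each mean being over 68 to 91 cells of 1 sample. The *Pdgfra* member is near its highest level by 24 h, whereas those of *Fst* and *Cryab* are below 2 on this scale until then.

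Of the members, TCONS_00059527 of *Trh* was at the median 66.6 and at its highest 525 TPM in the cells at 0 h and had a median of 0 and a highest value of 2.399 TPM at 72 h. Its means were 86.2, 5.36, 0.243, 0.177 and 0.0838 TPM over the 5 times, and its log2 fold of -6.33 was the lowest. It was detected in 98.9% of cells at 0 h and in 5.49% at 72 h. Members of *Jam2*, a junctional adhesion molecule, *Bmp4*, a secreted ligand, *Bcam*, a receptor of laminin, *Morc1*, which silences transposons in germ cells, and *Nphs1*, nephrin, had log2 folds of -4.78, -4.71, -4.48, -4.44 and -4.29. The times at which they were first low differed. The *Nphs1* member averaged 19.5 ± 9.73 TPM at 0 h and 0.0774 ± 0.2601 TPM at 12 h, whereas that of *Bcam* averaged 39.2 ± 23.5 TPM at 0 h, 52.9 ± 29.98 TPM at 12 h and 0.809 ± 1.004 TPM at 72 h.

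Of the 10 members with the lowest log2 folds, 3 were intergenic. TCONS_00015474 (chr12:4552542-4553815, 39011 bases from the nearest gene of vM9, *Gm3625*) averaged 28.3 ± 21.6 TPM at 0 h, 2.303 ± 3.63 TPM at 12 h and 0.359 ± 0.9296 TPM at 72 h (log2 fold -4.43). Its 2 introns, whose joins are shown above, form the lincRNA *Gm46332* in vM21. It was detected in 86.7% of cells at 0 h and in 8.89% at 24 h. TCONS_00028502 (chr16:84386429-84387057) averaged 59.1 ± 42.9 TPM at 0 h and 1.98 ± 3.57 TPM at 72 h, and TCONS_00017846 (chr13:66563933-66573277) 30.2 ± 19.7 and 0.591 ± 1.62 TPM. Neither has its intron chain in vM21, and cells at 0 h ranged from 0 to 163 TPM for TCONS_00028502. TCONS_00048958, antisense inside an intron of *Gm26573*, averaged 33.9 ± 24.9 TPM at 0 h and 0.851 ± 1.62 TPM at 72 h.

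Several members had their highest mean at 12 h. That of *Dnmt3a*, a de novo DNA methyltransferase, averaged 1.798 ± 2.73 TPM at 0 h, 14.6 ± 12.04 TPM at 12 h, 5.14 ± 5.897 TPM at 24 h and 0.509 ± 1.12 TPM at 72 h. That of *Vgll3*, a cofactor of TEAD factors, averaged 0.448 ± 0.629 TPM at 0 h, 7.12 ± 4.53 TPM at 12 h and 2.71 ± 2.89 TPM at 24 h, and was detected in every cell at 12 h. Members of *Abcc5*, a membrane transporter, *Ddc*, dopa decarboxylase, and a model over *Synpo2l* shared this order, with means at 12 h of 11.8 ± 10.2, 4.87 ± 5.04 and 2.87 ± 3.73 TPM. At 0 h they had 2.84 ± 2.999, 1.5001 ± 2.29 and 0.276 ± 0.557 TPM and at 24 h 3.01 ± 3.98, 0.805 ± 1.72 and 0.331 ± 0.935 TPM. For all 5 the SD over cells at 12 h was larger than the distance between the means at 12 h and 24 h.

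Members in or within 10 kb of the genes of 6 lists were counted, and the lists were written with earlier results of these data known. In or near 30 pluripotency genes, 20 members passed the filter, and 1 was higher and 14 lower at 72 h (median log2 fold -1.45, against 0.01 over all transcripts, of which 12.3% were higher and 9.79% lower). Beside those of *Trh* and *Jam2*, the member of *Nanog*, a core pluripotency factor, averaged 6.55 ± 8.93 TPM at 0 h and was listed at 0 in all cells at 72 h. That of *Zfp42* (Rex1), a marker of naive ES cells, averaged 19.8 ± 8.25 TPM at 0 h and 2.41 ± 1.83 TPM at 72 h, and that of *Gdf3*, a ligand of the TGF-beta family, 15.1 ± 5.77 and 0.0294 ± 0.141 TPM. The member higher at 72 h was an isoform of *Fgf3*, a growth factor gene that lies beside the listed *Fgf4* and is no pluripotency gene itself (0.0304 ± 0.14995 and 3.22 ± 2.69 TPM). In or near 29 endoderm genes, 15 of 16 members were higher and 0 lower (median log2 fold 3.00, beside the same 12.3% and 9.79% of all transcripts). The exception was the *Gata6* member, at a log2 fold of 0.305.

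Among the endoderm members, that of *Lrp2*, the endocytic receptor megalin, with 65 exons and 12192 bases, averaged 5.03 ± 3.68 TPM at 0 h and 106 ± 30.7 TPM at 72 h. That of *Cubn*, its partner cubilin, averaged 0.0817 ± 0.362 TPM at 0 h, 22.5 ± 19.1 TPM at 48 h and 11.4 ± 17.9 TPM at 72 h, the highest mean being at 48 h. The member of the transcription factor *Hnf4a* was at a low level, 2.15 ± 2.25 TPM at 72 h. Of 8 basement membrane members, 5 were higher and 1 lower (median 2.41, against 12.3% and 9.79% of all). The one that was lower, of the laminin chain *Lama5*, averaged 6.499 ± 4.48 TPM at 0 h, 9.27 ± 5.31 TPM at 12 h and 0.9703 ± 1.501 TPM at 72 h, whereas members of *Col4a1* and *Sparc* were higher (3.53 and 2.34 log2).

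Of 12 members in or near imprinted RNA genes, 3 were higher and 2 lower (median -0.24), against 12.3% and 9.79% of all transcripts. A 2-exon model in *Airn*, the antisense RNA of the *Igf2r* domain, averaged 0.0148 ± 0.1399 TPM at 0 h and 7.29 ± 5.22 TPM at 72 h, and was detected in 1.11% of cells at 0 h and in 100% at 72 h. The member of *Meg3*, an RNA of the *Dlk1* domain, was uneven between cells at 72 h. It was detected in 26.4% of cells with an SD of 6.61 TPM around a mean of 2.34. The *Nespas* model TCONS_00042629 averaged 5.95 ± 3.82 TPM at 0 h and 5.85 ± 3.73 TPM at 72 h. Of 13 members in or near genes of the naive and formative states, 0 were higher and 5 lower (median -0.57, against 12.3% and 9.79% of all), among them isoforms of *Otx2*, a formative transcription factor (listed at 0 in all cells at 72 h), *Tet1* and *Tet2*, which oxidise methylcytosine (-2.06 and -1.56), and *Lefty2*, a Nodal inhibitor (-1.66). In or near 14 genes of the 2-cell-like state there was 1 member, which did not pass the filter.

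Most members moved with the annotated isoforms of their gene. For 3154 expressed members in genes with annotated isoforms, the log2 folds of the member and of the summed annotated isoforms correlated with a Spearman coefficient of 0.838, a value across transcripts that share reads and cells. Of 752 members that were higher or lower by 2-fold or more, the annotated isoforms moved at least 2-fold the same way in 566 cases, by less than 2-fold in 181, and at least 2-fold the opposite way in 5. Those 5 were members of *Utrn*, *Pde4d*, *Gab1*, *Baz1a* and *Abr*. *Pde4d* is a phosphodiesterase of cyclic AMP, and its member TCONS_00018276 averaged 3.69 TPM at 0 h and 0.0255 TPM at 72 h. The annotated isoforms summed to 8.59 and 21.4 TPM but went both ways. ENSMUST00000129374.1, which spans that member, averaged 1.64 and 0.0251 TPM, and ENSMUST00000134973.7 averaged 2.26 and 12.1 TPM. Another *Pde4d* member, TCONS_00018366, averaged 1.57 and 6.45 TPM. *Gab1* is a docking protein of receptor kinases, and its member averaged 18.5 and 6.73 TPM while the annotated isoform had 1.30 and 6.25 TPM. Of these 5 members, only that of *Abr*, a regulator of small GTPases, was higher at 72 h. This member, TCONS_00012244, averaged 0.646 and 4.54 TPM, while the annotated isoforms summed to 29.7 and 12.9 TPM. Another *Abr* member, TCONS_00012245, averaged 5.42 and 0.522 TPM.

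*Utrn*, the utrophin gene, whose protein links actin to the membrane, had the largest such difference. TCONS_00006612 starts in an unannotated exon of 366 bases that is joined to a known exon of the gene by the sequence shown above, and its 25 exons hold the end of the gene out of 74 in the annotated transcript. In cells at 0 h it was at its lowest 1.38, at the median 13.7 and at its highest 46.7 TPM. The cells at 12 h had a mean of 0.627 ± 0.959 TPM and those at 72 h of 0.114 ± 0.238 TPM (log2 fold -3.79 from 0 h to 72 h). The annotated transcript averaged 1.71 TPM at 0 h and 8.26 TPM at 72 h. The whole gene went from 20.03 TPM at 0 h through 4.97 TPM at 12 h to 18.4 TPM at 72 h, with 91.4% of it in unannotated spliced isoforms at 0 h and 55.1% at 72 h. The intron chain of TCONS_00006612 is now annotated in vM21 as a protein-coding transcript.

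The share of a gene's TPM held by its unannotated spliced isoforms was a median of 14.6% at 0 h (2968 genes with at least 5 TPM) and 13.996% at 72 h (2997 genes), and in 428 to 456 genes per time it was at least 50%. Of 2464 genes with at least 5 TPM at both times, the share was higher by 20 points or more at 72 h in 7 and lower in 20. Taking the median over cells in place of the share of means, there were 15 and 30. By the share of means, the largest decrease was that of *Gata6*, the transcription factor that drives primitive endoderm, from 84.01% at 0 h through 12.9% at 24 h to 37.8% at 72 h. By medians over cells *Rbms2* decreased more, from 99.3% to 41.9%, than *Gata6*, from 84.2% to 33.5%. The *Rbms2* share ranged from 0.000501% to 100% over the cells at 0 h. In libraries of ES cell RNA it was at or below 0.000119% in rdRNA-seq and 0%, 7.45% and 13.6% in paRNA-seq. It was 86.3%, 99.4% and 99.7% in RamDA-seq and 0.0341%, 66.1%, 26.1% and 99.7% in C1-RamDA-seq. The bulk libraries thus did not have the *Rbms2* share of the 0 h cells. Over the cells at 0 h the *Gata6* share ranged from 40.7% to 91.5%.

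The *Gata6* member averaged 48.7 ± 21.96 TPM at 0 h, 12.7 ± 17.2 TPM at 24 h and 60.4 ± 47.7 TPM at 72 h, and the annotated transcript 9.27, 85.4 and 99.2 TPM. The member has an additional first exon and ends 106 bases into the last exon, of which the annotated transcript holds 1321 bases. Reads of the *Gata6* fusion transgene, which all cells of this line carry, fall on the coding exons of both models, and transgene and endogenous gene cannot be told apart there. In the libraries from ES cell RNA the member's share was 78.8%, 78.3% and 78.2% in paRNA-seq, 85.3%, 80.8% and 80.4% in rdRNA-seq, 89.8%, 89.1%, 90.98% and 89.2% in C1-RamDA-seq and 80.05%, 86.9% and 80.7% in RamDA-seq. All 13 libraries thus gave a share near that of the 0 h cells.

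**Figure D5:**
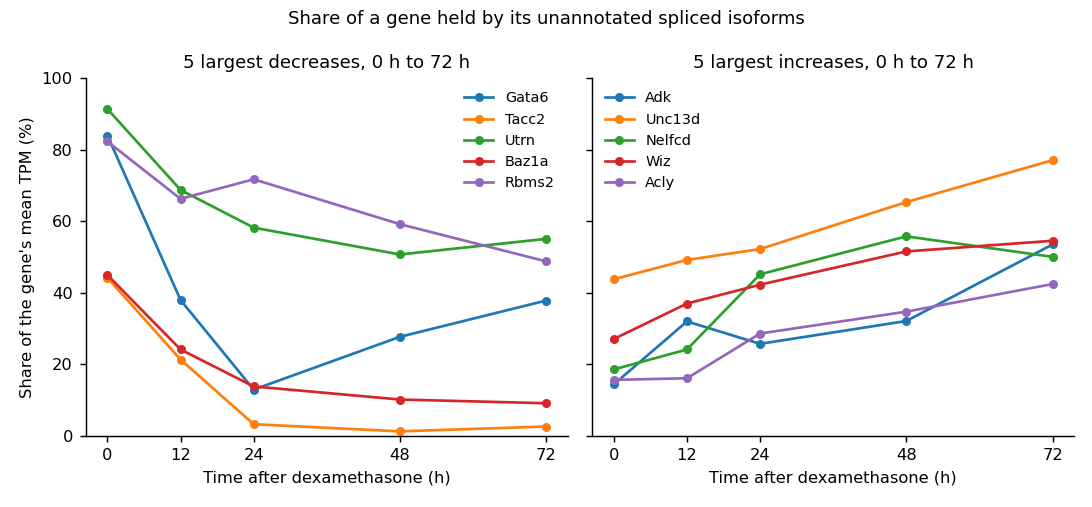
Lines give the percentage of a gene's mean TPM over cells that its unannotated spliced isoforms hold at each time, for the 5 genes with the largest decrease (left) and the 5 with the largest increase (right) from 0 h to 72 h. *Gata6* is at 84.01% at 0 h, at 12.9% at 24 h and at 37.8% at 72 h.

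*Tacc2*, which encodes a coiled-coil protein of centrosomes, had a decrease in the share of means from 44.2% at 0 h to 2.60% at 72 h, with 31.4 and 21.3 TPM for the whole gene. *Myo10*, an unconventional myosin of filopodia, went from 57.2% to 24.0%. *Baz1a*, a subunit of chromatin remodellers, went from 44.98% to 9.11% at a gene level of 5.99 TPM at 0 h. By medians over cells the *Baz1a* share was 22.2% at 0 h and 0% at 72 h, and its member was detected in 48.9% of cells at 0 h. In the other direction *Adk*, adenosine kinase, went from 14.4% to 53.5% with 13.1 and 20.3 TPM for the whole gene. *Acly*, the ATP citrate lyase, is more abundant, with 107 and 105 TPM, and its member's share was 15.6% and 42.5%. The *Acly* model had 16 exons, and the annotated transcript of 27 exons went from 39.9 to 15.6 TPM while the model went from 16.7 to 44.4 TPM. The remaining increases were in *Unc13d* (43.8% to 77.1%), *Nelfcd* (18.6% to 50.1%), *Wiz* (27.1% to 54.6%), *Cmss1* (35.8% to 59.9%) and *Zfp42* (20.6% to 43.4%). The gene level of *Zfp42* was 132 TPM at 0 h and 6.56 TPM at 72 h.

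Between methods, the members' share of a gene was compared over genes with a mean of at least 5 TPM in each method. Over 1961 genes the median share was 9.72 ± 0.266% in rdRNA-seq (n = 3), 9.51 ± 0.369% in paRNA-seq (n = 3), 10.7 ± 0.290% in RamDA-seq (n = 3) and 9.74 ± 0.864% in C1-RamDA-seq (n = 4). The lowest RamDA-seq library, at 10.5%, lay above all bulk libraries, and C1-RamDA-seq overlapped all 3 other methods. Genes with a share of at least 50% numbered 213 to 233 in the bulk libraries, 290 to 307 in RamDA-seq and 305 to 341 in C1-RamDA-seq, and no bulk library overlapped one from 10 pg.

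Some members were high in a few cells of a time only. TCONS_00040014, a 2-exon model of 231 bases antisense inside an intron of *Itih5*, had a median of 0 and a highest value of 1311 TPM in the cells at 48 h, when 31.7% of cells had it at 0.1 TPM or more, and its highest value at the other times was 15.4 TPM. The variance over cells at 48 h was 1208 times the mean, the largest ratio of all members. On chromosome 13, the models TCONS_00020409 (over *Gm21761*), TCONS_00018461 and TCONS_00020407 reached 1039, 694 and 473 TPM in their highest cell at 48 h. They were detected in 8.54%, 1.22% and 7.32% of cells there and were listed at 0 in every cell at 0 h. The summed mean TPM of 3 markers of 2-cell-like cells was also highest at 48 h, at 1.44 TPM against at most 0.112 TPM at the other times, of which *Zfp352* made up 1.31 TPM and *Zscan4c* was at 0, and its part in these values was not tested.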

How the data were processed

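Libraries of 5G6GR cells were sequenced as RamDA-seq of 421 single cells over 5 times and as 13 libraries of ES cell RNA. The authors mapped trimmed reads to mm10 with HISAT2 (2.0.1 per the submitters' processing notes), assembled them with Cufflinks (2.2.1) set as unstranded, classed the models against GENCODE vM9 and kept unannotated classes and splice variants with an unannotated junction. They removed models near annotated tRNA or rRNA or near the pseudogenes of a GENCODE pseudogene set, and short ones, and merged the rest with GENCODE vM9. Members over annotated pseudogenes such as *Gm15459* and *Gm1821* remain. The deposited TPM were estimated by the authors with Sailfish on these merged models, so isoforms of a gene share reads, strand was not used for the RamDA-seq libraries, and short transcripts can get a high TPM from few reads. The 10 pg libraries were downsampled to equal read numbers. The assembly kept only read pairs, which among the methods compared here only the bulk libraries of rdRNA-seq and paRNA-seq had. The members thus came from bulk libraries and not from the single reads of RamDA-seq or C1-RamDA-seq. Which bulk libraries were assembled, and whether bulk libraries were downsampled, are not given in the sources used here. TPM hold no depth, so no counting interval is given.

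Members and gene lists were chosen with earlier results of these data known. Groups came from the labels, and a method's libraries are its replicates, with no label that ties a library to a culture or RNA preparation. 8 columns of the methods table were not mapped to a sample and were not used. Comparisons with SMART-Seq v4 that had been planned were not analysed here, and those of RamDA-seq with C1-RamDA-seq and rdRNA-seq took their place. No cell was left out and no doublet caller was run.

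Between methods, log2(TPM + 1) of transcripts with a mean of at least 0.1 TPM was fitted with limma (3.58.1, R 4.3.3) over the libraries of both groups, and p-values were adjusted by Benjamini-Hochberg over all transcripts tested, with calls below 0.05. Folds on this scale understate the change of low transcripts. Over time, means over cells with a pseudocount of 1 TPM were compared at 2-fold for transcripts with a mean of at least 1 TPM, with no test. Detection was at 0.1 TPM. Introns were compared with GENCODE vM9 and vM21 in GRCm38. Their end bases were read from vM21 transcripts, since no genome sequence was used here, and poly(A) signals and repeats were not analysed here. Scripts were tested on simulated data and ran in Python 3.11.15 with numpy 2.4.6, pandas 2.3.3, scipy 1.17.1 and matplotlib 3.10.9.

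Members were named by rule: the 10 highest means, the 10 highest and lowest log2 folds from 0 h to 72 h, the 5 most above or below the other times at 12 h, the 5 largest folds in each direction of each method comparison among calls whose libraries do not overlap, members at list genes, the most extreme models, and the 5 largest ratios of variance to mean. The *App* model and *Cryab* TCONS_00070112 were named after their values were seen, as were the members of the shares and of the opposite isoforms. Alternatives changed the pseudocount, the filter, the scaling, the detection threshold, the mean over cells, the replicate block and the libraries.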

Additional observations from a re-analysis of the deposited data

Results flagged for a closer look

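Among the 4 C1-RamDA-seq libraries, 4 values had 1 library far from the others, of 33 groups of 4 libraries examined. For normal values chance gives about 1 in 20, a rate that need not hold for members named as lower in C1-RamDA-seq. The *Tra2a*, *Eif5a* and *Yme1l1* members were so named, and each has a library at 0 TPM. The gap to the nearest library, as a part of the whole range, was 1 for the *Tra2a* member TCONS_00058990 (1.576, 0, 0 and 0 TPM), 0.9503 for the *Eif5a* member TCONS_00012090 (0, 1.65, 33.19 and 0.2554 TPM) and 0.8388 for the *Yme1l1* member TCONS_00037212 (7.804, 0, 1.258 and 0.1047 TPM). It was 0.8337 for the share of TPM in members that overlap an exon on the opposite strand, where C1-RamDA-seq replicate 1 had 0.01789% and the other three lay between 0.01962% and 0.01997%.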

How the results depend on the processing

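Of the values of the comparisons recomputed under an alternative, 94 kept their direction and their side of the threshold, or a count within 1.5 times, 39 counts moved further, 8 values lost an unadjusted p under 0.05 and 3 reversed. Alternatives for the comparisons of RamDA-seq with C1-RamDA-seq and rdRNA-seq were chosen after seeing the data. Among members of at least 1 TPM in rdRNA-seq, the difference in members detected turned from -687 to 90.7 for rdRNA-seq less paRNA-seq. This selection was made on a compared group and by itself favours rdRNA-seq there. For RamDA-seq less C1-RamDA-seq the difference turned from -497.5 to 30 among the same members. There rdRNA-seq is in neither group, and the cause was not tested. At a threshold of 1 TPM, that of RamDA-seq less rdRNA-seq turned from -1246 to 796. Leaving out 1 library gave -752 to -635.5, -544.5 to -452.5 and -1297.5 to -1181. The 8 were those of RamDA-seq against C1-RamDA-seq, whose p of 0.0286 was not under 0.05 once adjusted over the 3 comparisons (exact permutation adjusted p = 0.0857), without each of the 7 libraries, and under the block, where these designs cannot go below 0.05.

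For rdRNA-seq against paRNA-seq, rescaled TPM gave 551 calls (336 higher, 215 lower), and a mean of at least 1 TPM gave 69 higher. Without 1 library there were 1546 to 2053 calls, 92 to 143 higher and 1408 to 1961 lower. For RamDA-seq against C1-RamDA-seq, a mean of at least 1 TPM gave 273 calls, 213 of them lower, and rescaling 73 higher and 51 lower. Leaving out 1 library gave 98 to 142 calls, 14 to 33 higher and 84 to 109 lower. For RamDA-seq against rdRNA-seq, a mean of at least 1 TPM gave 388 calls (287 higher, 101 lower), and leaving out 1 library 72 to 204 calls, 50 to 144 higher and 22 to 60 lower. From 0 h to 72 h, a pseudocount of 0.1 gave 1353 members at 2-fold (665 higher, 688 lower) and a mean of at least 5 TPM gave 238 (117 higher, 121 lower). By medians over cells 15 genes had a higher share, and the median share was 12.04% at 0 h and 11.1% at 72 h. Fewer transcripts or libraries enter under the stricter filter and without a library, and for the others the cause was not tested.

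With the replicate number as a block, the difference in members detected was -513 (RamDA-seq less C1-RamDA-seq, exact permutation p = 0.25), 64 members were higher in rdRNA-seq than in paRNA-seq, and 96 were called between RamDA-seq and C1-RamDA-seq (19 higher, 77 lower). The numbers do not pair the libraries: deviations of libraries with the same number correlated at -0.0147 to 0.00375. TPM hold no depth, and what low members lose to it cannot be given.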
